A study of Mus musculus with 12 samples.

Results

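The alternative activation genes were followed in macrophages (Mϕ) of the mouse peritoneum during the resolution of a zymosan-induced peritonitis. The genes described here are 9 of 47643 gene identifiers in each deposited table, taken by gene symbol. They were Retnla, Chil3, Mrc1, Clec10a, Mgl2, Cd163, Il4ra, Stat6 and Pdcd1lg2. All 9 were listed in both tables, and 8 of the 9 had enough reads to be tested.

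All mice were female, of the C57/BL6 strain and 8 to 12 weeks old, carried no engineered allele, and received 5 mg/kg zymosan A i.p. From day 1 on they were injected i.p. every day, either with CIII (25 mg/kg compound III, which inhibits mPGES-1) or with its vehicle (VEH) of Tween-80, carboxymethyl cellulose and NaCl. mPGES-1, microsomal prostaglandin E synthase-1, makes the lipid mediator PGE2 at sites of inflammation. On day 6, 2 Mϕ subpopulations were sorted by FACS from the lavage. F4/80lo Mϕ were CD45+ and CD11b+, low for F4/80 and MerTK and high for MHCII. F4/80hi Mϕ were CD45+, CD11b+ and high for F4/80 and MerTK. The study's gating set aside dendritic cells, positive for CD11c and MHCII, before either subpopulation was taken, and Ly6G+ neutrophils before F4/80lo Mϕ. Each subpopulation gave 3 libraries from VEH and 3 from CIII, 12 in all, with 426624 to 3389448 reads on genes. The genes behind the gates are given only as a check of the labels. Nothing in the sources names the mouse behind a library, so the p-values measure the spread between these libraries.

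The libraries numbered replicate 3 stood apart in all 4 groups. In these 4 libraries 2.65% to 14.3% of the reads fell on the noncoding gene Gm42418, and in the other 8 not more than 0.579%. The summed level of 12 resident peritoneal Mϕ markers in F4/80hi Mϕ was 211 to 4535 reads per 1000000 reads on genes (RPM) with VEH and 447 to 3002 with CIII, and replicate 3 was the lowest each time. Adgre1, which encodes F4/80, had 1064 to 1336 RPM in replicates 1 and 2 of F4/80hi Mϕ but 366 and 368 in replicate 3, within the 205 to 381 of the F4/80lo libraries. The ranges of Mertk overlapped, at 193 to 450 RPM in F4/80lo Mϕ and 169 to 435 in F4/80hi Mϕ. The MHCII gene H2-Aa had 4728, 4511 and 602 RPM in F4/80lo Mϕ with VEH, against 614, 278 and 597 in F4/80hi Mϕ. H2-Ab1 had 3700, 4563 and 680 against 388, 173 and 492. With CIII, replicate 3 of F4/80hi Mϕ had 3654 and 3984 RPM of these genes, against 5292 and 5528 in replicate 3 of F4/80lo Mϕ. Of 12 eosinophil and mast cell markers, 6 had no read in any library, among them Epx and Prg2. The sum of the 12 was 51.4, 106 and 0.885 RPM in F4/80lo Mϕ with VEH and 13.8, 7.03 and 0 with CIII, most of it from Ear2, and at most 4.34 in F4/80hi Mϕ. Of 12 neutrophil markers, Camp and Ngp had no read, S100a8 and Csf3r had reads in every library, and the sum was 23.1 to 126 RPM over the 12 libraries. These marker genes were picked by name after their values were seen. The summed level of 8 mesothelial markers did not exceed 1.90 RPM in any library. For 9 B cell markers it was 20.9 to 133 RPM with VEH and 27.8 to 208 with CIII in F4/80lo Mϕ. In F4/80hi Mϕ it was 1.45 to 43.8 and 14.9 to 75.8. For 9 T and NK cell markers it was 8.47 to 24.2 and 12.8 to 63.3 in F4/80lo Mϕ, and 1.45 to 71.4 and 2.29 to 9.48 in F4/80hi Mϕ. Dendritic cell markers were present in F4/80lo Mϕ, at 10.03 to 417 RPM in sum with VEH and 114 to 272 with CIII, against 2.71 to 26.0 in F4/80hi Mϕ. Levels of the members in the comparison of CIII with VEH are therefore given by replicate, and differences between the subpopulations also over replicates 1 and 2 alone.

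Alternative activation is the state that Mϕ take on under the type 2 cytokines IL-4 and IL-13. Both cytokines bind receptors that contain the IL-4 receptor alpha chain, which is encoded by Il4ra. Janus kinases then phosphorylate STAT6, which dimerises and enters the nucleus, where it binds palindromic TTC and GAA half-sites separated by 4 bases. Classical targets in mouse Mϕ include the secreted proteins Retnla (RELMα, FIZZ1) and Chil3 (Ym1), the lectin receptors Mrc1 (CD206), Clec10a (MGL1) and Mgl2, and the checkpoint ligand Pdcd1lg2 (PD-L2). Cd163, the haemoglobin scavenger receptor, is commonly listed with them and also responds to glucocorticoids and IL-10.

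RefSeq promoters of build GRCm38.p6, from 250 bases before to 50 bases after the annotated start, were at hand for 8 of the 9 genes. They were searched for TTCNNNNGAA, whose half-sites have the STAT6 spacing, and for TTCNNNGAA, with the shorter spacing that other STAT proteins prefer. Both letter strings read the same on either strand, and the matches of the 2 strings did not overlap. TTCNNNNGAA was found in 2 of the 8 genes, Retnla and Pdcd1lg2, and in 6.95% of all 32851 promoters. TTCNNNGAA was found in 1 of the 8, Chil3, and in 8.30% of all promoters. The 3 promoters that held a match are shown, among them that of Retnla, the member whose level spanned the widest range, and the match is in capitals. The Retnla sequence is chr16:48842359-48842658 on the plus strand, with the match from 145 to 136 bases before the start. The Pdcd1lg2 sequence is chr19:29410669-29410968 on the plus strand, with the match from 82 to 73 bases before the start. The Chil3 sequence is chr3:106167515-106167814 on the minus strand, with the match from 172 to 164 bases before the start.
Retnla: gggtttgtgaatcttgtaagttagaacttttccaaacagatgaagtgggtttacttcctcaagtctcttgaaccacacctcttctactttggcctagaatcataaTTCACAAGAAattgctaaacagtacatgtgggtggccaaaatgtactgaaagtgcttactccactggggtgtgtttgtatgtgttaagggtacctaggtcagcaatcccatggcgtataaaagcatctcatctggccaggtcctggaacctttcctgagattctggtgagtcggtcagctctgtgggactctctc
Pdcd1lg2: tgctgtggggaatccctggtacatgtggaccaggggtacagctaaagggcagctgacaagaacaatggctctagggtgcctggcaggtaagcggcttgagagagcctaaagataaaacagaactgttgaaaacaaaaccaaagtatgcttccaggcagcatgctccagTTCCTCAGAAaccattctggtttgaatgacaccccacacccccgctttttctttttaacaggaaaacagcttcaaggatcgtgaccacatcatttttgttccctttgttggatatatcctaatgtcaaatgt
Chil3: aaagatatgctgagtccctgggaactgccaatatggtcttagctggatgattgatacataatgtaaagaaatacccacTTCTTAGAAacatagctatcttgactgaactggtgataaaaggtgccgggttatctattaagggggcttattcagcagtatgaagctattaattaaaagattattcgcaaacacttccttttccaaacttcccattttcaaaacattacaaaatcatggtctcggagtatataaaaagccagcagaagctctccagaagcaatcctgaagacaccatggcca
Such a match is a string of letters, and binding was not measured here. The promoters of Mrc1, Cd163, Il4ra, Stat6 and Mgl2 held neither string in these windows.

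To ask whether blocking mPGES-1 shifted the program, CIII was compared with VEH within each subpopulation on the deposited normalized counts, which are reads divided by 1 size factor per library. With limma, adjusted over 10718 genes in F4/80lo Mϕ and 10499 in F4/80hi Mϕ, 0 of the 8 tested members passed an adjusted p of 0.05 in either. The background was 0% of all genes in both. At an unadjusted p under 0.05, limma had 289 genes (2.7%) in F4/80lo Mϕ, among them 1 member, Il4ra, and 413 genes (3.93%) in F4/80hi Mϕ, with no member among them. DESeq2 called 2 genes in F4/80lo Mϕ and 0 in F4/80hi Mϕ, and edgeR 0 in both; neither called a member. Libraries that carried one replicate number shared their deviations from the group means, most of all those of replicate 3. Centring on groups of 3 libraries favours such a likeness. The fit was repeated with the number as a block, which changed no member's call in these 2 comparisons. A block joined VEH and CIII libraries, which came from different mice. With the block, 2 of 8 members in F4/80lo Mϕ, Il4ra and Retnla, had an unadjusted p under 0.05, against 6.89% of all genes, and 1 of 8 in F4/80hi Mϕ, Il4ra, against 11.3%. Of the dendritic cell markers tested, 7 of 7 in F4/80lo Mϕ had a positive log2 difference with CIII (median 1.16) and 0 of 2 in F4/80hi Mϕ, and of the resident markers 5 of 11 and 2 of 12. None was called by limma without the block, and their part in the members' levels was not tested. Groups of 3 against 3 cannot reach an exact permutation p below 0.1.

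**Figure D1:**
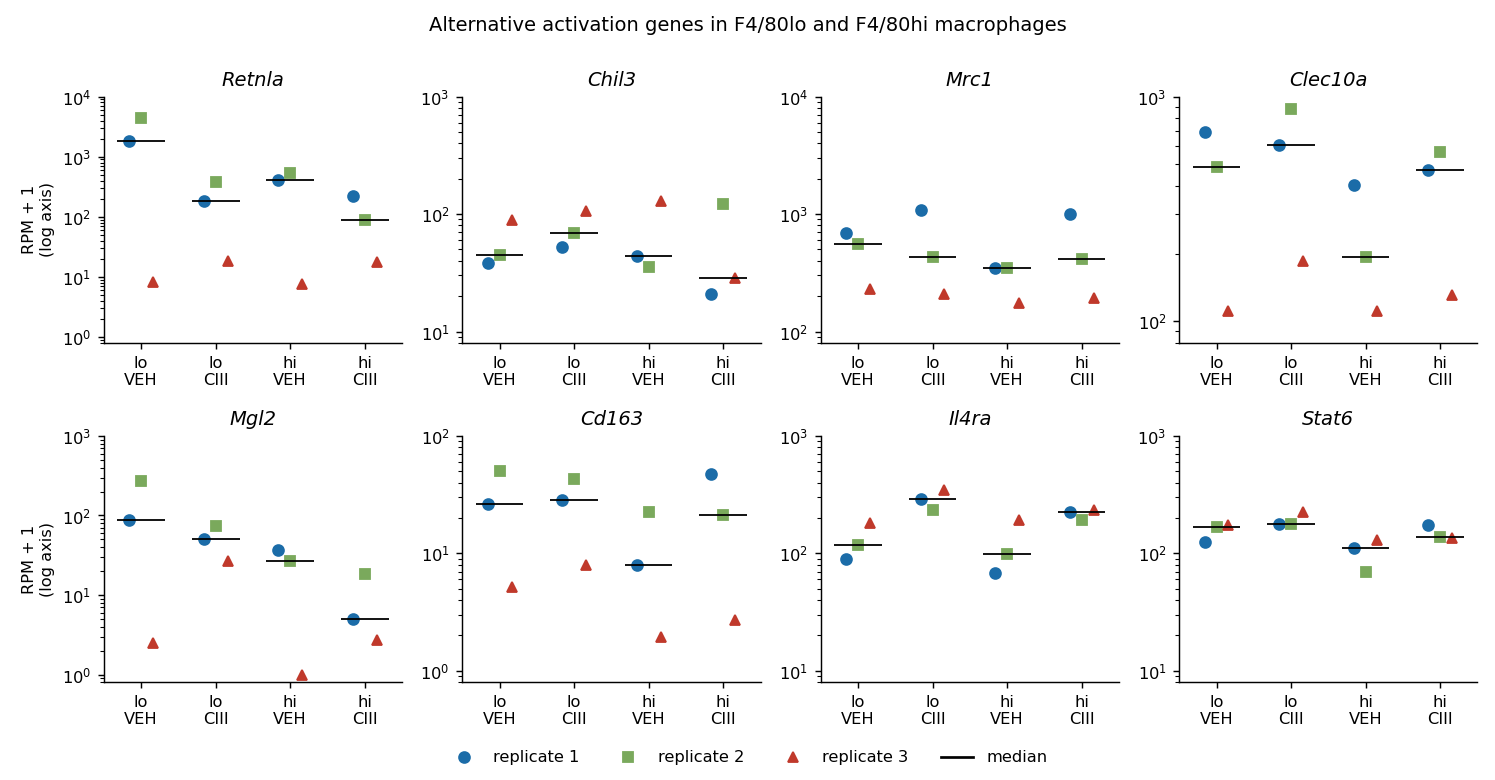
RPM plus 1 (log axis) of the 8 tested members in every library, by subpopulation (lo, hi) and treatment (VEH, CIII). Each point is 1 library, its shape and colour the replicate number, and the black line the group median. Retnla in replicate 3 lay between 6.66 and 17.4 RPM in the 4 groups, below all other libraries, and Il4ra in replicate 3 was the highest of each group.

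The receptor and its transcription factor act first in the pathway, and Il4ra was the member with the smallest p between treatments. In F4/80lo Mϕ, Il4ra (GRCm38 chr7:125552120-125579474, plus strand) had 86.1, 107 and 203 normalized counts with VEH in replicates 1 to 3. With CIII it had 267, 226 and 331. The 3 CIII libraries all lay above the 3 VEH libraries, and 1 of 8 members had groups that did not overlap, against 8.73% of all genes; in F4/80hi Mϕ this held for 0 of 8, against 10.5%. The means were 274 ± 52.6 with CIII and 132 ± 62.2 with VEH (SD, n = 3), a log2 difference of 1.13 ± 0.39 (SE), with a limma adjusted p of 1.00 from an unadjusted 0.0136. With the replicate block the unadjusted p was 0.00159 and the adjusted p 0.591, and the adjusted p ranged from 0.118 to 1.00 over the alternatives. At the same replicate number the log2 difference was 1.62, 1.08 and 0.70, higher with CIII in 3 of 3.

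The F4/80hi Mϕ had an Il4ra level of 65.2, 87.5 and 210 normalized counts with VEH and of 201, 168 and 222 with CIII. The CIII libraries of replicates 1 and 2 were above their VEH counterparts and replicate 3 hardly differed, so that the groups overlapped through the VEH library of replicate 3. The log2 difference was 0.88 ± 0.45 (limma adjusted p = 0.992, blocked unadjusted p = 0.0171, blocked adjusted p = 0.327). At the same replicate number it was 1.61, 0.93 and 0.08. Both subpopulations therefore had the higher mean of Il4ra with CIII, and neither passed the threshold.

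Stat6, the transcription factor that the receptor activates, had 121, 151 and 196 normalized counts with VEH and 163, 174 and 212 with CIII in F4/80lo Mϕ. The log2 difference of 0.25 ± 0.34 lay within the spread of the libraries, although it was positive at each of the 3 replicate numbers. In F4/80hi Mϕ the counts were 105, 61.4 and 143 with VEH and 158, 123 and 128 with CIII, a log2 difference of 0.47 ± 0.38. Replicate 3 went the other way there. The last exons of Stat6 overlap those of Nab2 on the opposite strand, and the strand setting of the counting is not given in the sources used here, so reads of the 2 genes may have been exchanged.

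Retnla (chr16:48842551-48844461, plus strand, 4 exons), a small secreted cysteine-rich protein and one of the most inducible products of IL-4 in mouse Mϕ, had the largest mean difference of any member in F4/80lo Mϕ. VEH gave 1806, 4082 and 8.33 normalized counts in replicates 1 to 3, which came from 1552, 3180 and 25 reads. CIII gave 169, 366 and 16.6. In replicates 1 and 2 every VEH library was above every CIII library, and both libraries of replicate 3 were far below all of these.

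The log2 difference of Retnla in F4/80lo Mϕ was -1.99 ± 1.83 (limma unadjusted p = 0.300, adjusted p = 1.00). At the same replicate number it was -3.41, -3.48 and 0.91. As ratios of the normalized counts themselves, without the pseudocount, Retnla was 10.7-fold and 11.2-fold lower with CIII in replicates 1 and 2 and 1.99-fold higher in replicate 3. Replicate 3 rested on 25 reads with VEH and 15 with CIII. Over replicates 1 and 2 alone the mean difference was -3.44. With the replicate block the unadjusted p was 0.0116 and the adjusted p 0.682, and over the alternatives the adjusted p ranged from 0.278 to 1.00. Leaving out single libraries moved the difference from -4.72, without replicate 3 of VEH, to -0.33, without replicate 2 of VEH. The eosinophil and mast cell markers, whose sums are given above, were likewise highest in replicates 1 and 2 of VEH, and their part in the level of Retnla was not tested.

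In F4/80hi Mϕ, Retnla had 398, 485 and 7.34 normalized counts with VEH and 201, 79.3 and 15.9 with CIII. The order within replicates was the same as in F4/80lo Mϕ: lower with CIII in 2 of 3 and higher in replicate 3. The log2 differences were -0.98, -2.60 and 1.02, and their mean of -0.85 ± 1.47 did not pass the test (limma adjusted p = 0.992, blocked unadjusted p = 0.133). Without replicate 1 of VEH the mean was 0.03, and over replicates 1 and 2 alone it was -1.79. Retnla shares at most 42 bases in a row with its paralog Retnlg over its last 500 transcript bases, and Retnlg had 23 reads in the 12 libraries together.

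Of the 8 tested members, 2 in each subpopulation, Il4ra and Stat6 in F4/80lo Mϕ and Il4ra and Clec10a in F4/80hi Mϕ, had the same sign at all 3 replicate numbers, against 28.8% of all genes in F4/80lo Mϕ and 33.8% in F4/80hi Mϕ, so such a share was not particular to the members.

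Chil3, a secreted chitinase-like protein, did not follow Retnla. It had 36.1, 39.8 and 99.6 normalized counts with VEH and 47.5, 66.2 and 99.5 with CIII in F4/80lo Mϕ, a log2 difference of 0.37 ± 0.48. The F4/80hi libraries had 41.2, 31.4 and 143 with VEH and 18.05, 108 and 26.3 with CIII, a difference of -0.60 ± 0.75 that was positive in replicate 2 and negative in the other two. Over replicates 1 and 2 alone it was 0.30. The 3′ end of Chil3 shares a run of 126 bases with its paralog Chil4, longer than the 75 sequencing cycles, so a part of its reads could not be assigned to 1 of the 2 genes with certainty. Chil4 had 0 reads.

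**Figure D2:**
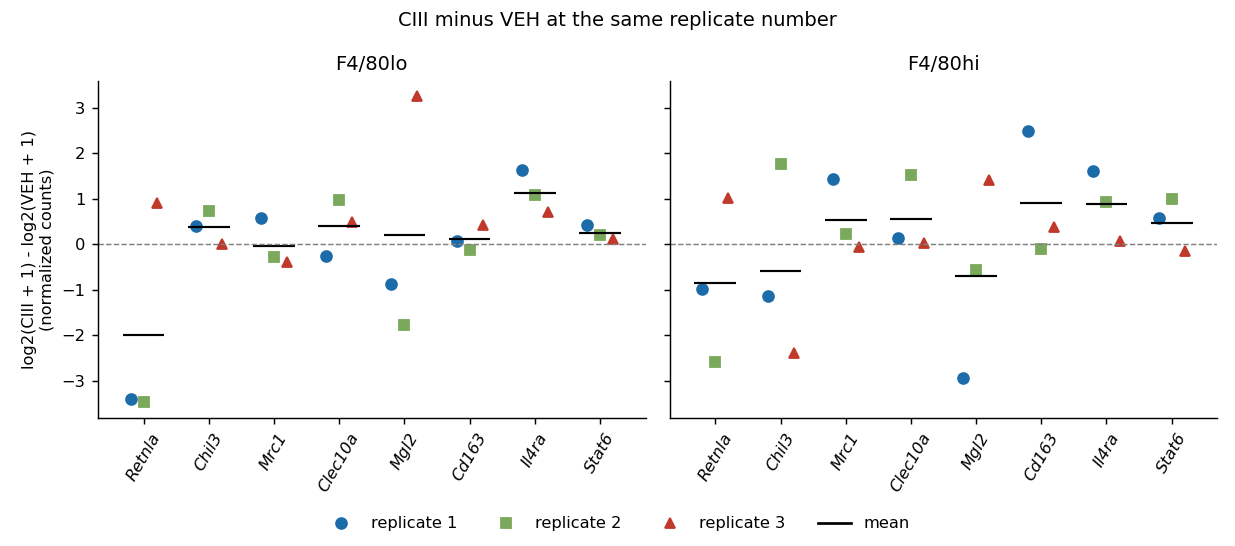
Log2 difference between CIII and VEH at the same replicate number, on normalized counts plus 1, for the 8 tested members in F4/80lo Mϕ (left) and F4/80hi Mϕ (right). Points are the 3 replicate numbers and black lines their means. Il4ra lay above 0 at all 6 points, and Retnla lay below 0 in replicates 1 and 2 and above 0 in replicate 3 of both subpopulations.

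The endocytic receptors of the set did not share a direction. Mrc1, the mannose receptor, had 668, 503 and 260 normalized counts with VEH and 990, 416 and 197 with CIII in F4/80lo Mϕ, and the log2 difference was -0.04 ± 0.56. In F4/80hi Mϕ it had 334, 315 and 191 with VEH and 907, 365 and 184 with CIII, a difference of 0.53 ± 0.55 that came mostly from replicate 1. Clec10a, a galactose-binding lectin, had 675, 439 and 125 with VEH and 560, 861 and 176 with CIII in F4/80lo Mϕ, and 387, 174 and 122 with VEH against 424, 502 and 124 with CIII in F4/80hi Mϕ. Its differences were 0.40 ± 0.67 and 0.56 ± 0.60, and the treatments overlapped in both.

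Mgl2 lies 18646 bases from Clec10a on chromosome 11 with no gene between them. The 2 are paralogs, and their 3′ ends share no more than 13 bases in a row, so their reads were separable. In F4/80lo Mϕ, Mgl2 had 83.8, 244 and 1.67 normalized counts with VEH and 45.4, 70.8 and 24.3 with CIII. It was lower with CIII in replicates 1 and 2 and higher in replicate 3, as for Retnla, and the log2 difference was 0.20 ± 1.26. Its sign depended on the setting: it was -1.32 over replicates 1 and 2 alone and -1.25 with edgeR. The F4/80hi libraries had 34.6, 23.5 and 0 with VEH and 3.61, 15.6 and 1.64 with CIII, a difference of -0.70 ± 1.33 based on at most 26 reads per library. Cd163 had 24.4, 44.9 and 4.66 with VEH and 25.5, 41.1 and 6.63 with CIII in F4/80lo Mϕ, which did not differ beyond the spread (0.12 ± 0.84). In F4/80hi Mϕ it had 6.65, 19.6 and 1.05 with VEH and 41.9, 18.03 and 1.64 with CIII, where replicate 1 carried the difference of 0.91 ± 1.14.

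Pdcd1lg2 had reads in replicate 3 only, 6 in F4/80lo Mϕ with VEH, 4 with CIII and 4 in F4/80hi Mϕ with VEH, 14 reads in all. It was below the minimum mean of 3 normalized counts and was not tested. These reads were 1.77, 4.64 and 3.81 RPM. The limit that a count of 0 allows in the other 9 libraries was 1.72 to 7.03 RPM, and it lay above the lowest of these levels in 8 of the 9 and above the highest in 1.

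Whether the 2 subpopulations responded differently to CIII was tested as an interaction over 10097 genes. With limma no gene passed the adjusted threshold (0%), and 173 genes (1.71%) had an unadjusted p under 0.05, with no member among them. The blocked fit had 5.34% of all genes and 0 members at that level. The difference of the responses, F4/80lo minus F4/80hi, was positive in 3 of 8 members, against 44.1% of all genes. It was -1.14 ± 2.87 log2 units for Retnla, 0.26 ± 0.61 for Il4ra and 0.97 ± 0.97 for Chil3. For Mrc1 it was -0.57 ± 0.88, for Clec10a -0.16 ± 1.04, for Mgl2 0.91 ± 2.14, for Cd163 -0.79 ± 1.59 and for Stat6 -0.23 ± 0.48. These intervals are wide, most of all for Retnla.

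Next, the levels of the members were compared between F4/80lo and F4/80hi Mϕ. The authors set the size factors of the 2 tables separately, so the reads recovered from the deposited values were scaled to RPM for this comparison. The cells of a library were sorted in bulk, and fewer expressing cells cannot be told apart from less RNA per cell. Among 10736 genes tested, limma called none with VEH or with CIII when the replicate number was left out (0% each). At an unadjusted p under 0.05 it had 643 genes (5.99%) and 562 (5.23%), with none of the 8 tested members in either. DESeq2 called 19 and 22 genes and edgeR 0 and 0, with no member among them. The replicate block gave VEH and CIII libraries of one number a shared effect, although these came from different mice. With it limma called 14 genes with VEH (0.13%) and 9 with CIII (0.0838%), with none of the 8 members among them.

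Mgl2 had the largest mean difference between the subpopulations among the 8 tested members. With CIII it had 49.2, 72.7 and 25.5 RPM in F4/80lo Mϕ and 3.99, 17.6 and 1.72 in F4/80hi Mϕ, without overlap. With VEH it had 86.1, 268 and 1.48 against 35.9, 26.0 and 0. The groups overlapped through replicate 3 of F4/80lo Mϕ, the only F4/80lo library within the F4/80hi range. The log2 difference was 2.87 ± 1.53 with CIII and 1.95 ± 1.53 with VEH, positive in 6 of 6 pairs. Neither passed the test (limma adjusted p = 0.948 and 0.910, blocked adjusted p = 0.200 and 0.316). Averaged over both treatments with the replicate block, a fit added after the data were seen, it had a log2 difference of 2.41 ± 0.59 and an adjusted p of 0.0425, in a comparison that called 261 genes (2.43%). This block, too, spanned both treatments. Without it that adjusted p was 0.502. Within a treatment the adjusted p ranged over the other alternatives, left-out libraries aside, from 0.224 to 0.967 with VEH and from 0.0976 to 1.00 with CIII. Leaving out 1 library moved the difference with VEH to 0.29, without replicate 3 of F4/80hi, and to 3.94, without replicate 3 of F4/80lo.

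Mgl2 is also known from a subset of dendritic cells, and CD11c+ MHCII+ cells had been gated out before the sort of either subpopulation. Of the dendritic cell markers, 7 of 7 tested had a positive log2 difference with VEH and with CIII, F4/80lo minus F4/80hi, with medians of 2.46 and 3.96, and limma without the block called none. Among them Cd209a had 100, 138 and 1.48 RPM in F4/80lo Mϕ with VEH and 54.6, 68.0 and 15.1 with CIII, against at most 2.40 in F4/80hi Mϕ. Cd209a was picked after its values were seen. The library lowest for Mgl2 in F4/80lo Mϕ, replicate 3 of VEH, was also the lowest for Cd209a. The part of these markers in the level of Mgl2 was not tested.

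**Figure D3:**
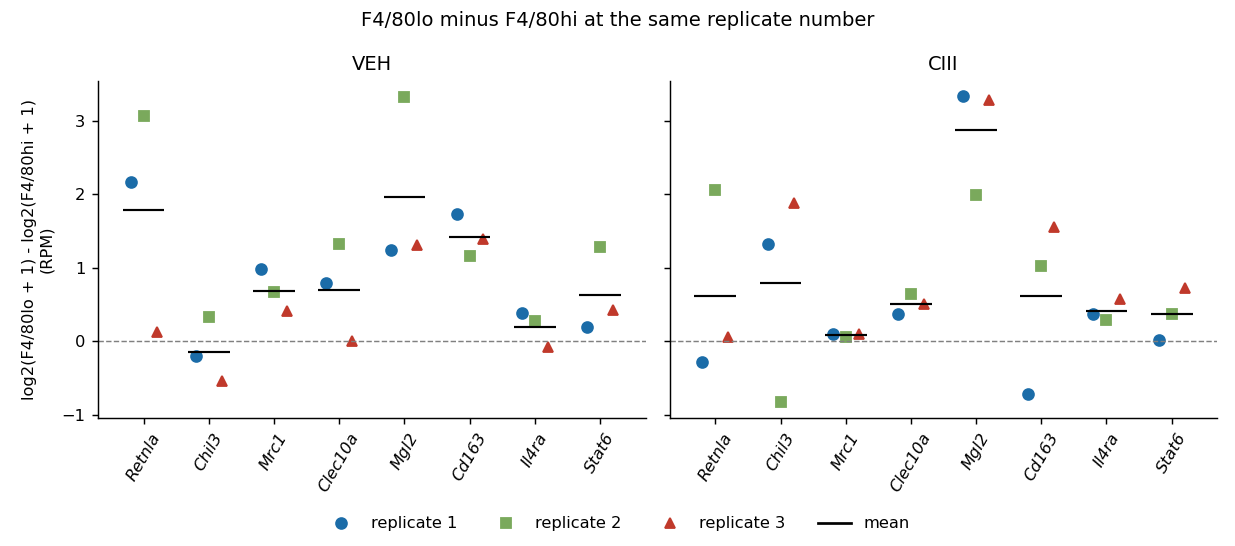
Log2 difference between F4/80lo and F4/80hi Mϕ at the same replicate number, on RPM plus 1, for the 8 tested members with VEH (left) and CIII (right). Points are the 3 replicate numbers and black lines their means. Mgl2 lay above 0 at all 6 points, between 1.24 and 3.33.

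Retnla with VEH was 1855, 4491 and 7.38 RPM in F4/80lo Mϕ against 413, 536 and 6.66 in F4/80hi Mϕ. It was higher in F4/80lo Mϕ at each replicate number, by 2.17, 3.06 and 0.13 log2 units, with a mean of 1.79 ± 2.05 (limma adjusted p = 0.946, blocked adjusted p = 0.329). Leaving out 1 library moved this mean to -0.20, without replicate 3 of F4/80hi, and to 4.60, without replicate 3 of F4/80lo, and over the other alternatives the adjusted p ranged from 0.0533, over replicates 1 and 2 alone, to 0.975. With CIII it was 183, 375 and 17.4 against 222, 89.4 and 16.6, and the mean difference was 0.61 ± 2.05. It was -0.39 without replicate 3 of F4/80hi and -0.28 without replicate 2 of F4/80lo, and 1.89 without replicate 3 of F4/80lo. In F4/80lo Mϕ with VEH, Retnla made up 51.6% and 72.8% of the reads of the 9 members in replicates 1 and 2, and at most 40.5% in each of the other 10 libraries. Each read of these 3′ libraries stands for a transcript end, so the shares do not scale with transcript length.

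With VEH the other members had smaller differences between the subpopulations than Mgl2 and Retnla, while with CIII those of Chil3 and Cd163 were at least as large as that of Retnla. The log2 difference with VEH was 0.69 ± 0.65 for Mrc1, 0.70 ± 0.76 for Clec10a, 1.42 ± 1.16 for Cd163 and 0.63 ± 0.32 for Stat6. With CIII the same members had 0.08 ± 0.65, 0.51 ± 0.76, 0.61 ± 1.16 and 0.37 ± 0.32. Il4ra had 0.19 ± 0.39 and 0.41 ± 0.39, and Chil3 had -0.14 ± 0.65 and 0.79 ± 0.65. None passed the adjusted threshold with or without the block. Over the 8 tested members, 7 had a positive log2 difference with VEH and 8 with CIII, against 58.4% and 51.5% of all genes. Pdcd1lg2 was not tested here either.

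Without replicate 3, whose F4/80hi libraries were low for Adgre1, limma called 51 genes with VEH (0.475%) and 34 with CIII (0.317%), with none of the 8 members among them. Over replicates 1 and 2 alone the mean log2 difference with VEH was 2.61 for Retnla, 2.28 for Mgl2, 1.44 for Cd163, 1.05 for Clec10a, 0.82 for Mrc1, 0.73 for Stat6, 0.33 for Il4ra and 0.06 for Chil3. With CIII it was 2.66 for Mgl2, 0.89 for Retnla, 0.51 for Clec10a, 0.33 for Il4ra, 0.25 for Chil3, 0.19 for Stat6, 0.15 for Cd163 and 0.07 for Mrc1. Only Chil3 with VEH thereby changed its sign.

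Stat6 with CIII had 177, 178 and 223 RPM in F4/80lo Mϕ and 175, 138 and 134 in F4/80hi Mϕ, so the groups did not overlap but nearly touched. In all, 0 of 8 members did not overlap with VEH and 2 of 8 with CIII, Mgl2 and Stat6, against 10.3% and 11.4% of all genes. The same direction at all 3 replicate numbers was seen in 5 of 8 members with each treatment, against 37.8% of all genes with VEH and 34.6% with CIII. With the block, 6 of 8 members with VEH and 1 of 8 with CIII, Mgl2, had an unadjusted p under 0.05, against 13.4% and 11.3% of all genes.

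Within each group, replicate 3 divided the members into 2 sets. Retnla, Mgl2, Cd163, Clec10a and Mrc1 were lowest in replicate 3 in all 4 groups, 5 of the 8 tested members against 12.5% of the 10736 genes. Il4ra was highest in replicate 3 in all 4 groups, 1 of 8 against 11.6%. Chil3 and Stat6 were highest in 3 of the 4, and so was the untested Pdcd1lg2, whose few reads all came from replicate 3.

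The sizes differed as well. Relative to the mean of replicates 1 and 2 of its group, the log2 difference of Retnla in replicate 3 ran from -8.43 to -3.01. For Mgl2 it ran from -5.95 to -1.20, for Cd163 from -3.54 to -2.15, for Clec10a from -2.38 to -1.32 and for Mrc1 from -1.73 to -1.0. For Il4ra it ran from 0.18 to 1.22. Retnla in replicates 1 and 2 spanned 89.4 to 4491 RPM, while in replicate 3 it stayed between 6.66 and 17.4 in both subpopulations and with both treatments.

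The monocyte gene Ly6c2 went with this split: it had 55.0 to 336 RPM in replicate 3 and 2.71 to 68.0 in replicates 1 and 2. The resident markers, Adgre1 in F4/80hi Mϕ and Gm42418 went with it too, as given above. Ly6c2 was picked after its values were seen. The part of these in the members' levels was not tested, and what set replicate 3 apart is not given in the sources used here.

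**Figure D4:**
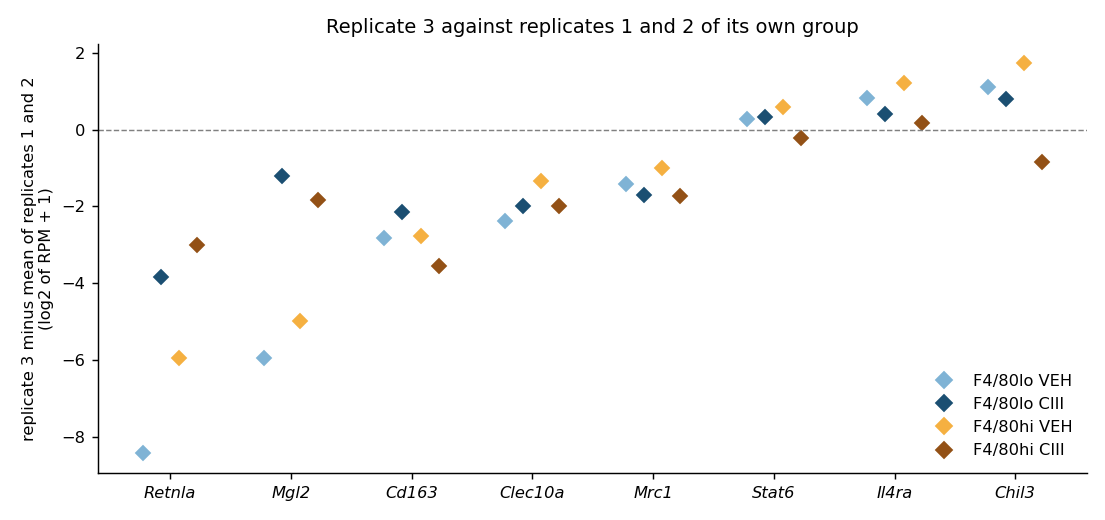
Log2 difference between replicate 3 and the mean of replicates 1 and 2 of the same group, on RPM plus 1, for the 8 tested members in the 4 groups. Members are ordered by their median. Retnla, Mgl2, Cd163, Clec10a and Mrc1 lay below 0 in all 4 groups and Il4ra above 0 in all 4.

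The wider pathway was described by lists of genes. Of 15 genes of IL-4 and IL-13 receptor signalling, 11 were tested. All 11 had a positive log2 difference with CIII in F4/80lo Mϕ and 9 of 11 in F4/80hi Mϕ, against 45.9% and 53.5% of all genes, and limma without the block called none. The median log2 differences of the list were 0.59 and 0.30, against -0.05 and 0.05 over all genes. The list holds the inhibitors Socs1, Socs3 and Ptpn6 beside receptors and kinases, so a positive count gives no direction of signalling. These inhibitors had 0.59, 0.91 and 0.13 in F4/80lo Mϕ and -0.75, 0.30 and -0.17 in F4/80hi Mϕ. The cytokine genes Il4 and Il13 and the decoy receptor Il13ra2 had 0 reads in all 12 libraries.

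Of 12 transcription factors of alternative activation, 12 were tested, with 4 positive differences in F4/80lo Mϕ and 10 in F4/80hi Mϕ. Of 28 other genes induced in this state, 22 were tested in F4/80lo Mϕ, where 8 were positive and 14 negative, and 20 in F4/80hi Mϕ, where 11 were positive and 9 negative. Of 18 genes of classical activation, the opposing program driven by interferon-γ and LPS, 12 and 11 were tested, with 5 and 6 positive. Limma without the block called no gene of these lists in any of the 5 comparisons, and the lists were not read in the other fits. The medians of the 3 lists in F4/80lo Mϕ were -0.10, -0.07 and -0.29, and in F4/80hi Mϕ 0.25, 0.42 and 0.03.

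The genes whose pattern over the 12 libraries was most like that of 2 members were named by the smallest root mean square distance of the centred log2 levels, among 8456 genes. For Retnla these were Slc7a5, an amino acid transporter, Ccl24, a chemokine for eosinophils, and Bcam, an adhesion molecule, at 1.15, 1.39 and 1.42 log2 units. Slc7a5 had 40.6, 162 and 0.295 RPM in F4/80lo Mϕ with VEH and 20.8, 23.4 and 3.48 with CIII, and so shared the low replicate 3. Ccl24, which is also in the list of other genes induced in alternative activation, had 65.7, 234 and 0.885 with VEH there. With CIII it had 5.38, 23.4 and 0. For Chil3 they included Ptcd2 and Trim26, at 0.47 and 0.54. All points share the libraries and their depth, so the likeness is a description.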

How the data were processed

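Poly(A) 3′ tag libraries of 12 samples (2 subpopulations, 2 treatments, 3 replicates) were used. The authors trimmed reads with Bbduk, mapped them with STAR to GRCm38, collapsed molecular identifiers and counted with HTSeq-count in the Bluebee QuantSeq pipeline; versions are not given in the sources used here. The values deposited are a signal, normalized counts, which are reads divided by a DESeq2 size factor set separately in each table. Of all values, 100% were whole multiples of 1 read (tolerance 0.01), and these reads were scaled to RPM, reads per 1000000 reads on genes. A count of 0 allows 3 reads, counting error only.

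Tests were made with limma 3.58.1 in R 4.3.3 on log2(value + 1), so fold changes of low genes are understated, for genes with a mean of at least 3, two-sided, with Benjamini-Hochberg adjustment at 0.05. Count tests with edgeR 4.0.16 and DESeq2 1.42.0 on the recovered reads were alternatives, besides pseudocount, minimum, TMM factors, array weights, replicate block and left-out replicates. Same-numbered libraries deviated together from their group means: all 12 same-number correlations exceeded 0.1 (0.121 to 0.685). Replicate 3 carried the highest of these (0.478 to 0.685) and correlated negatively with the other numbers. The deviations of 3 libraries from their own mean sum to 0. An outlying replicate 3 shared by 2 groups therefore raises the correlations within and between numbers 1 and 2. It also makes its own with them negative. Those between numbers 1 and 2 were positive too (0.0155 to 0.285). Replicate 1 of VEH went with replicate 2 of CIII more than with replicate 1, at 0.171 against 0.121 in F4/80lo Mϕ and 0.285 against 0.216 in F4/80hi Mϕ. The pairing comes from the replicate numbers in the labels, and this check cannot show that numbers 1 and 2 mark pairs. The labels do not say that a number marks a mouse or day. No 2 libraries held identical reads. The fits were tested on simulated data.

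The 8 tested members were named in every comparison, Pdcd1lg2 with its reads, and up to 3 genes most alike for Retnla and Chil3. Genes of other lists were to be named where called. Limma without the block called none of them, and the list genes named here were picked after their values were seen. A further gene of the set and an alike gene are not reported here. The members and lists were chosen with earlier results of these data known. Gene coordinates are those of GENCODE on GRCm38 and promoters those of RefSeq.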

Additional observations from a re-analysis of the deposited data

How the results depend on the processing

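In F4/80lo Mϕ the count of genes called between CIII and VEH was 0, 2 with DESeq2, 2 with array weights and 4 with edgeR and the replicate block, and 0 members were called under each. Between the subpopulations with VEH the count of called genes moved from 0 to 14 with the replicate block, 19 with DESeq2, 51 over replicates 1 and 2 alone, 25 with edgeR and the replicate block, 4 with both treatments averaged and 261 with these and the replicate block. With CIII these counts were 9, 22, 34, 43, 4 and 261, and 2 in the 6 libraries of that treatment. The averaged fits are 1 comparison over both treatments, counted beside each. With the replicate block that comparison called 1 member, Mgl2, and within a treatment the block changed no member's call. Without single replicates the count ran from 0 to 20 with VEH, being 8 without replicate 3 of F4/80lo VEH and 20 without replicate 3 of F4/80hi VEH, and from 0 to 1 with CIII, being 1 without replicate 3 of F4/80lo VEH. The fits of edgeR with the replicate block and of averaged treatments were chosen after seeing the data, and the causes were not tested.

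Signs turned for members that were not called. Between CIII and VEH in F4/80lo Mϕ, Mrc1 had log2 differences of 0.037 on RPM, 0.15 with edgeR, 0.17 with DESeq2, 0.32 with array weights and 0.15 over replicates 1 and 2 alone. Clec10a had -0.078 with array weights. Mgl2 had -0.13 with a pseudocount of 5, -1.25 with edgeR, -1.23 with DESeq2, -0.74 with array weights, -1.32 over replicates 1 and 2 alone and -0.22 with edgeR and the replicate block. Cd163 had -0.024 with edgeR, -0.012 with DESeq2, -0.13 with array weights and -0.032 over replicates 1 and 2 alone. Over replicates 1 and 2 alone, Chil3 had 0.30 between treatments in F4/80hi Mϕ and 0.062 between subpopulations with VEH, where both treatments averaged gave 0.33. Mrc1 had -0.0046 between subpopulations with CIII under TMM factors.

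Leaving out 1 library at a time turned the sign of further uncalled differences, with these lowest and highest values. Between CIII and VEH in F4/80lo Mϕ they were -0.63 and 0.53 for Mrc1, -0.31 and 1.06 for Clec10a, -1.72 and 1.54 for Mgl2, and -0.74 and 0.83 for Cd163. In F4/80hi Mϕ they were -2.76 and 0.17 for Retnla, -1.35 and 0.056 for Chil3, -0.068 and 1.08 for Mrc1, and -2.33 and 0.25 for Mgl2. Between the subpopulations with VEH they were -0.20 and 4.60 for Retnla, -0.51 and 0.43 for Chil3, and -0.14 and 0.60 for Il4ra. With CIII they were -0.39 and 1.89 for Retnla, -0.53 and 0.69 for Mrc1, -0.16 and 1.17 for Clec10a, and -0.57 and 1.49 for Cd163. For the difference of the responses, where a whole replicate number of 4 libraries was left out at a time, the values were -0.48 and 0.034 for Clec10a, -1.22 and 0.027 for Cd163, and -0.47 and 0.056 for Stat6. No member changed its call. Members with few reads, Mgl2, Cd163 and Pdcd1lg2, are limited by depth, most of all in the library of 426624 reads.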
